A study of Mus musculus with 4 samples.

Results

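Mouse lung endothelial cells without dexamethasone were compared after siRNA against Nr3c1, the gene of the glucocorticoid receptor (GR), and after control siRNA. The column of GR siRNA was set against the column of control siRNA for every gene that reached 1 FPKM (fragments per length of transcript and size of library) in either one. This kept 11325 of the 23997 genes of the table. Each difference is given as GR siRNA minus control siRNA on the log2(FPKM + 1) scale, where adding 1 understates the difference of genes of low abundance.

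Bulk RNA sequencing was done on endothelial cells from lungs of C57BL/6 mice, cultured in EBM-2 medium with 10% serum. Both groups compared received an siRNA for 48 h: a control siRNA in one and GR siRNA in the other. The 2 further conditions of the study carried the same siRNAs and also received dexamethasone (DEX), a synthetic glucocorticoid, at 100 nM for 18 h. They are given beside the main values as columns with DEX, which are another condition and not a replicate. The labels give neither the sex or age of the mice nor the sequence or number of the siRNAs. The series design speaks of triplicates, while the table has 1 column per condition, so no value has a spread and no difference has a test.

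GR is a nuclear receptor that waits in the cytoplasm with chaperones, moves to the nucleus when it binds a steroid, and there raises or lowers the transcription of genes. Serum holds natural glucocorticoids, and endothelial GR is known for restraining inflammation and for effects on vessel tone, lipid handling and blood vessel growth. An siRNA lowers the mRNA that it matches, and through a short stretch of its own bases it can also lower other mRNAs.

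The columns differed in depth, which bears on genes of low abundance. The FPKM of a single fragment was 1.491 times as large with control siRNA as with GR siRNA, which puts the depth of the control column at 0.671 of the other. The FPKM values summed to 566428 with control siRNA and to 537772 with GR siRNA.

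Nr3c1 was lower in the column labelled GR siRNA. It stood at 14.4 FPKM after control and 5.45 FPKM after GR siRNA, and at 14.3 and 5.32 FPKM in the columns with DEX. The 2 GR siRNA values lay below both control values, and the differences were −1.26 without and −1.28 with DEX. Nr3c2, which encodes the mineralocorticoid receptor and can also bind glucocorticoids, was near 0 in both columns, at 0.127 and 0.0945 FPKM. The cytosolic chaperone Hsp90aa1, which shares sequence with other genes, was at 250.5 and 193 FPKM, and its relative Hsp90ab1 at 1557 and 1686 FPKM.

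Most genes differed little between the columns. The median difference over all 11325 genes was −0.0136, and the 5th and 95th percentiles were −0.42 and 0.40. At 1.5-fold on the log2(FPKM + 1) scale 267 genes (2.36%) were higher and 288 (2.54%) lower with GR siRNA, and at 2-fold 89 (0.786%) were higher and 81 (0.715%) lower. When both columns were brought to the same total FPKM, the share of higher genes among those past 1.5-fold was 58.2% in place of 48.1%, so the balance between the directions depends on the scaling.

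Calls among long transcripts with their own sequence recurred more often in the columns with DEX than other calls did. These transcripts were set apart with earlier results of these data known. This class (a longest transcript that reaches 300 nt, with under 10% of its 31-base words in another gene) held 8550 genes, of which 171 (2.0%) were higher and 179 (2.09%) lower by 1.5-fold, and 28 (0.327%) higher and 22 (0.257%) lower by 2-fold. In the columns with DEX, 124 of the 171 higher genes and 135 of the 179 lower genes were again past 1.5-fold in the same direction, and none was past it in the opposite one; past 1.5-fold there were 2.18% and 2.11% of the class on the higher and lower side. Among the 2775 short, sequence-sharing or unmatched genes, 96 (3.46%) were higher and 109 (3.93%) lower. Only 33 and 51 of these recurred, and 25 and 12 were past 1.5-fold the other way, where 2.92% of these genes were higher and 4.18% lower with DEX. Rps27, encoding a ribosomal protein and sharing sequence with other genes, went from 2309.5 to 73.6 FPKM without DEX and from 2143 to 1930.2 FPKM with it. The names that follow come from the long, unshared class unless stated otherwise.

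**Figure D1:**
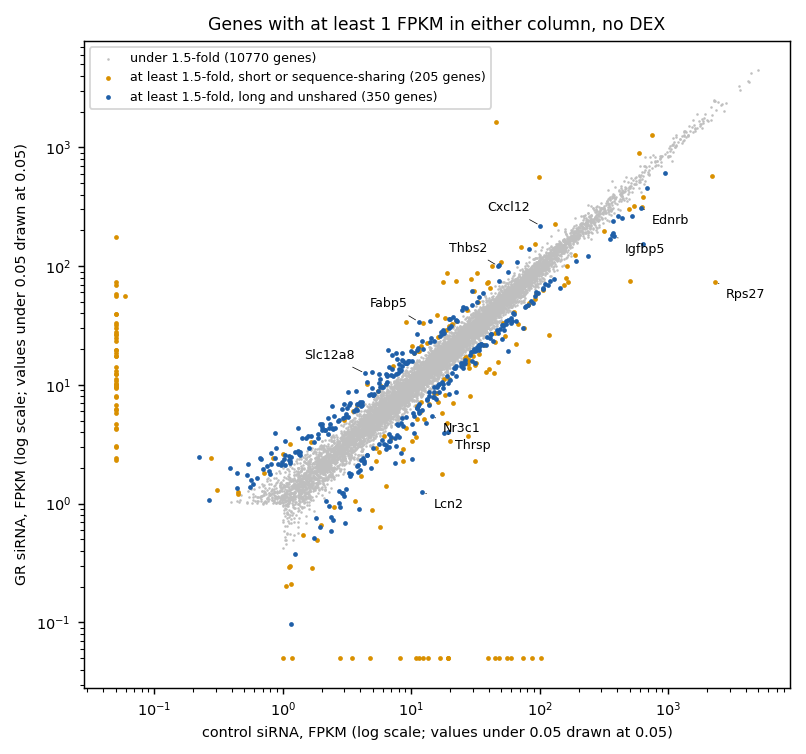
FPKM with GR siRNA (vertical, log axis) against FPKM with control siRNA (horizontal, log axis), 1 point per gene, with values under 0.05 drawn at 0.05; blue marks long, unshared genes past 1.5-fold and orange short or sequence-sharing ones. Most genes follow the diagonal, Nr3c1 (14.4 and 5.45 FPKM) lies below it, and the points at the axes, which are 0 or near 0 in 1 column, are orange.

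Genes that glucocorticoids are known to induce were lower with GR siRNA although no DEX had been given. Of 43 listed genes 37 were measured, and 10 of them were at least 1.5-fold lower and 2 higher, against 2.54% and 2.36% of all genes. The list median was −0.21, and −0.18 for the same genes with DEX. Without DEX 27 of the 37 were lower, against 52.8% of all genes, and 26 were lower at the same total FPKM. With DEX, where 51.8% of all genes were lower, 24 of the 27 were lower again, and 9 members were higher in both states. Lcn2 (chr2:32384633-32388252), an iron-scavenging secreted protein, was lowest of the list relative to control, at 12.2 FPKM with control and 1.26 FPKM with GR siRNA. Zbtb16, a zinc finger transcription factor, went from 3.93 to 0.897 FPKM, and the clock gene Per1 from 15.1 to 7.91 FPKM. Tsc22d3, encoding the anti-inflammatory protein GILZ, was at 50.7 and 24.5 FPKM. The other members past 1.5-fold on the lower side were Fkbp5, a co-chaperone that holds GR back (difference −0.71), the cell cycle inhibitor Cdkn1a (−0.62), Ddit4, Cebpb, the metallothionein Mt2 (−0.73) and the sulfotransferase Sult1a1 (−0.92). Cebpb, Sult1a1 and Mt2 share sequence with other genes.

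Some textbook targets of GR differed by under 1.5-fold. Dusp1, a phosphatase that switches off MAP kinases, was at 97.2 and 85.6 FPKM (−0.18), and Anxa1, a mediator of glucocorticoid action on inflammation, at 461 and 463 FPKM. Sgk1, a serum- and glucocorticoid-induced kinase, was at 645 and 491 FPKM (−0.39), and the metallothionein Mt1 at 454 and 357 FPKM (−0.34). Against the direction of the list, Angptl4 went from 4.98 to 12.9 FPKM and the transcription factor Tfcp2l1 from 1.03 to 2.55 FPKM. Of 11 measured genes for C/EBP factors and acute phase proteins, 3 were lower by 1.5-fold and none higher (median −0.33). Over all genes 2.54% were lower and 2.36% higher by 1.5-fold. Lcn2, Lrg1 and the sequence-sharing Cebpb made up the 3.

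The largest differences on the higher side were in genes of varied function. Among 6660 long, unshared genes of at least 5 FPKM, the 25 with the largest differences ranged from 0.89 to 1.5, and in the columns with DEX all 25 were higher and 24 were past 1.5-fold. Fabp5 (chr3:10012548-10016607), a carrier of fatty acids inside cells, had 11.4 and 34.0 FPKM, and 11.5 and 35 FPKM with DEX. Slc12a8 (chr16:33517328-33664135), a member of the cation-chloride cotransporter family, had 4.37 and 12.5 FPKM. The taurine transporter gene Slc6a6 had 14.0 and 34.3 FPKM (13.8 and 33.7 FPKM with DEX). In each of these 3 genes both GR siRNA values were more than 2-fold above both control values. Ddc, which makes dopamine and serotonin from their precursors, had 3.24 and 8.77 FPKM, and Tbxa2r, the thromboxane receptor, had 2.42 and 6.64 FPKM. Txnrd3, a thioredoxin reductase, had 7.04 and 17.9 FPKM. The cytokine gene Tslp was at 3.74 and 8.92 FPKM. Fosb, an early-response transcription factor, differed less with DEX (6.67 and 14.1 FPKM without, 12.9 and 18.3 FPKM with DEX) and was the 1 gene of the 25 below 1.5-fold there.

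On the lower side the 25 largest differences ran from −2.55 to −0.96, and 24 of the genes were lower and past 1.5-fold with DEX as well. After Lcn2 came Lrg1 (chr17:56119678-56122001), a secreted glycoprotein of vessels, with 19.4 and 3.98 FPKM (20.3 and 4.78 FPKM with DEX). Thrsp (chr7:97412938-97417730), a nuclear protein of lipogenic tissue, had 18.1 and 3.96 FPKM. Ucp2, an uncoupling protein of the inner mitochondrial membrane, had 56.2 and 19.3 FPKM. All 3 were lower in both GR siRNA columns than in either control column. Lars2, the mitochondrial leucyl-tRNA synthetase, was the exception among the 25, with 630 and 153 FPKM without DEX but 346 and 350 FPKM with it. Nr3c1 itself ranked among these genes. Rgcc, a regulator of the cell cycle, had 8.25 and 2.65 FPKM, Rab3a, a GTPase of regulated secretion, 19.7 and 8.39 FPKM, and Pak3, a kinase of the cytoskeleton, 10.4 and 3.94 FPKM. Masp1, a protease of the lectin pathway of complement, had 7.64 and 3.06 FPKM. Abundant genes were among them too: Serinc3 had 521 and 264 FPKM, the proteasome assembly factor Pomp 362 and 184 FPKM, and the complex I subunit Ndufc2 238 and 122 FPKM.

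**Figure D2:**
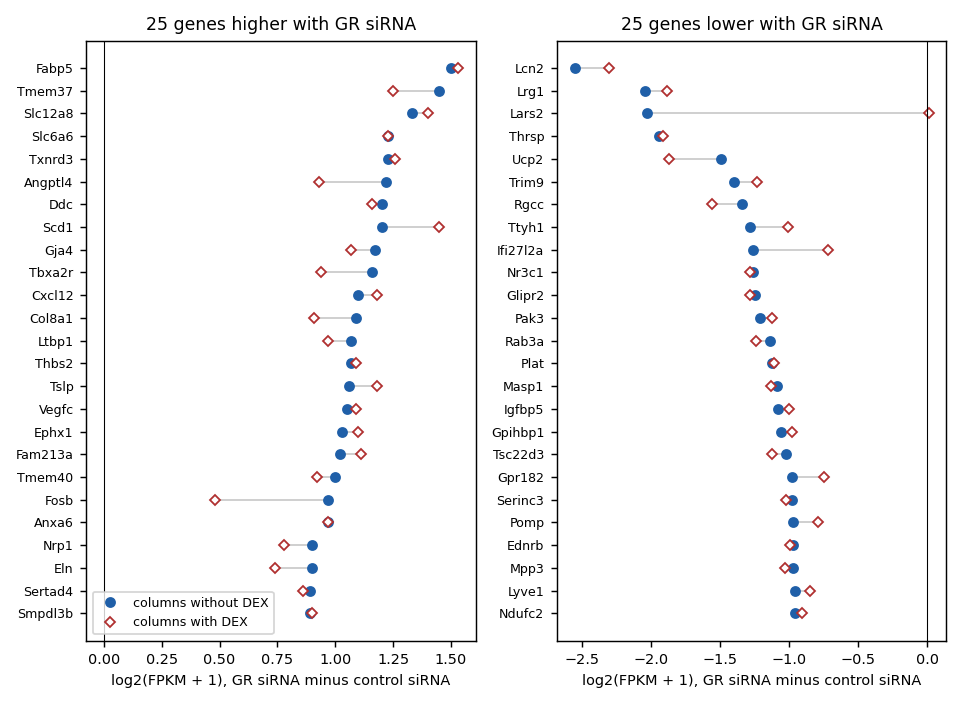
Difference on the log2(FPKM + 1) scale, GR siRNA minus control siRNA, for the 25 long, unshared genes with the largest differences on each side; filled blue circles are the columns without DEX that ranked them, open red diamonds the columns with DEX. The 2 symbols lie close together for most genes, while Lars2 moves from −2.03 to 0.01 and Fosb from 0.97 to 0.48.

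Genes for making and taking up fat and cholesterol were mostly higher with GR siRNA. Of 20 measured genes of fatty acid synthesis 18 were higher (47.2% of all genes were above 0). By 1.5-fold 4 were higher and 1 lower, against 2.36% and 2.54% of all genes. The median was 0.29 in both DEX states. Fasn, fatty acid synthase, had 19.6 and 30.3 FPKM. The stearoyl-CoA desaturases Scd1 and Scd2, which introduce the first double bond, had 11.1 and 26.9 FPKM and 138 and 203 FPKM. Fads2, a desaturase of polyunsaturated fatty acids, had 6.39 and 12.3 FPKM. Thrsp, a gene of the same list, was the member lower by 1.5-fold. Mid1ip1, which is related to Thrsp and activates acetyl-CoA carboxylase, was at 26.9 and 42.6 FPKM and shares sequence with other genes.

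In the list of cholesterol synthesis, uptake and efflux, 30 of 36 measured genes were higher, against 47.2% of all genes (median 0.30). By 1.5-fold 7 were higher and 1 lower, against 2.36% and 2.54% of all genes. The 7 included Mvd (8.45 and 14.4 FPKM), Lss (3.72 and 6.27 FPKM), Hsd17b7 (5.03 and 8.15 FPKM) and Msmo1 (32.7 and 49.9 FPKM), which act at successive stages of the pathway. Abca1, the exporter of cholesterol to HDL, was also among them, with 3.08 and 5.68 FPKM. The transcription factors of the pathway, Srebf1 (15.8 and 20 FPKM) and Srebf2 (50.5 and 66.5 FPKM), differed by 0.33 and 0.39. Insig2, which holds the SREBP complex in the endoplasmic reticulum, was the member on the lower side, at 7.87 and 4.63 FPKM.

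Genes that handle lipoprotein fat at the vessel wall were split. Gpihbp1 (353 and 169 FPKM), which carries lipoprotein lipase to the capillary lumen, was lower. The lipase gene Lpl was higher but near the filter, at 1.02 and 2.38 FPKM. Angptl4, whose product inhibits the lipase, was higher, as given above. Among the nuclear receptors that sense fatty acids, Ppard was at 34.0 and 23.1 FPKM (−0.54) and Pparg at 19.1 and 24.8 FPKM (0.36). The fatty acid carrier Fabp4 was at 377 and 400.4 FPKM, and Cd36, a fatty acid translocase of capillaries, was near 0 at 0.0815 and 0.0576 FPKM. Over the 26 measured genes of this list 3 were higher and 2 lower by 1.5-fold, against 2.36% and 2.54% of all genes. The list median was 0.24, and 0.15 with DEX.

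Collagen genes were higher with GR siRNA almost throughout. The list, which also holds collagen-modifying enzymes and small proteoglycans, had 21 measured members. Without DEX 19 of these were higher, against 47.2% of all genes. By 1.5-fold 5 were higher and 1 lower, against 2.36% and 2.54% of all genes. Of the 5, Dcn (0.387 and 1.99 FPKM) reached 1 FPKM only with GR siRNA, so the filter fixed its direction. The 19 were also higher with DEX, where 48.2% of all genes were. The median was 0.34, and 0.29 with DEX. Col8a1, a short-chain collagen of vessel walls, had 48.0 and 103 FPKM (51.2 and 96.8 FPKM with DEX). The chains of collagen V, which starts fibrils, followed: Col5a1 had 2.5 and 5.42 FPKM, Col5a2 6.50 and 10.6 FPKM, and Col5a3 3.75 and 6.93 FPKM. The abundant basement membrane chains differed less, with Col4a1 at 464 and 561 FPKM (0.27) and Col18a1 at 237 and 326 FPKM (0.46). Plod2, a lysyl hydroxylase that modifies collagen, went the other way with 16.5 and 10.2 FPKM.

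Elastic fibre genes were also more often higher than lower, while matrix proteases were mixed. In the elastic fibre list 11 of 16 measured genes were higher, against 47.2% of all genes (median 0.34, with DEX 0.42). By 1.5-fold 3 were higher and none lower, against 2.36% and 2.54% of all genes. Eln, elastin, had 3.35 and 7.10 FPKM. Ltbp1, which anchors latent TGF-beta in the matrix, had 4.53 and 10.6 FPKM, and Emilin2 had 1.03 and 3.34 FPKM. Fbln5, which guides elastic fibre assembly, was lower, at 103 and 74.9 FPKM. Thbs2, an inhibitor of vessel growth, had 47.3 and 100.2 FPKM, while its relative Thbs1 was level at 14.9 and 14.9 FPKM. Fibronectin, Fn1, had 48.6 and 65.7 FPKM. Of 22 measured matrix proteases and their inhibitors 13 were higher and 9 lower (median 0.11), and only the gelatinase gene Mmp2 passed 1.5-fold, with 26.8 and 44.3 FPKM. The proteases Adamts5 (−0.49), Adamts1 (−0.41) and Adam9 (−0.41) had the largest differences on the lower side.

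Among integrins and laminins 4 of 24 measured genes were higher and 1 lower by 1.5-fold, against 2.36% and 2.54% of all genes (median 0.23). Itga7, a laminin receptor subunit, had 5.70 and 11.2 FPKM, Itga4 had 2.03 and 4.64 FPKM, and the laminin gamma chain Lamc1 had 56.2 and 89.7 FPKM. Itgb3, a subunit of the vitronectin receptor, was the lower one, at 106 and 64.5 FPKM. TGF-beta signalling genes had no common direction (median −0.04): Tgfb2 (1.32 and 2.77 FPKM) and Tgfb3 (8.42 and 16.2 FPKM) were higher, while the activin subunit gene Inhbb was lower with 25.6 and 14.9 FPKM. In the BMP list Smad1, which carries the signal of BMP receptors, was at 46.6 and 29.1 FPKM, but its target Id1 was at 558 and 492 FPKM.

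**Figure D3:**
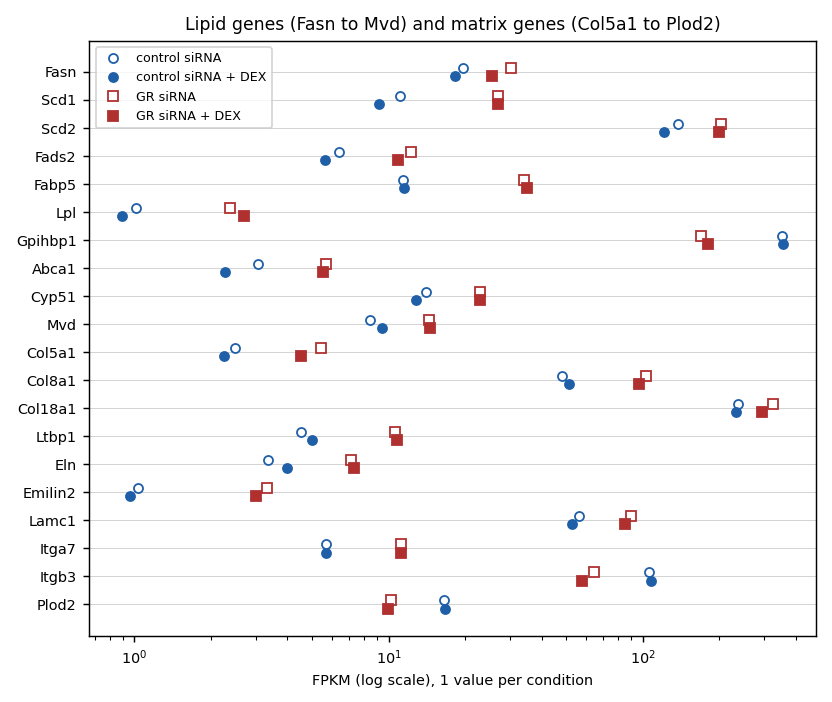
FPKM (log axis) of 10 lipid genes and 10 matrix genes in the 4 conditions, 1 value each; blue circles are control siRNA, red squares GR siRNA, open symbols without and filled symbols with DEX. Squares lie right of circles for all genes drawn except Gpihbp1 (353 and 169 FPKM without DEX), Itgb3 (106 and 64.5 FPKM) and Plod2 (16.5 and 10.2 FPKM).

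Secreted and guidance factors of the vessel wall differed one by one. Of 5 measured binding proteins of insulin-like growth factors 2 were lower by 1.5-fold: Igfbp5 had 379 and 178 FPKM (355 and 177 FPKM with DEX), and Igfbp3 had 438 and 255 FPKM. The other 3 had differences above 0 and under 1.5-fold: Igfbp4 (0.10), Igfbp6 (0.50) and Igfbp7 (0.13). The insulin receptor gene Insr was at 25.2 and 16.9 FPKM (−0.54). Vegfc, the growth factor of lymphatic vessels, had 29.4 and 61.8 FPKM, and the co-receptor Nrp1 had 12.1 and 23.5 FPKM, while the VEGF receptors Kdr (89.3 and 99.7 FPKM) and Flt1 (78.9 and 70.0 FPKM) were near level. The repulsive guidance cue Sema3a, a ligand that acts through Nrp1, had 25 and 13.9 FPKM, and Sema7a had 61.2 and 34.3 FPKM. Sema3d, from the same family, was higher from a low level, 0.441 and 1.80 FPKM, and reached 1 FPKM only with GR siRNA. Over the 27 measured ephrins, semaphorins and their receptors 2 were higher and 2 lower by 1.5-fold, against 2.36% and 2.54% of all genes.

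Genes of vessel tone and cell contact also moved singly. The endothelin receptor Ednrb had 607 and 309.6 FPKM, and Ace, which makes angiotensin II, had 51.2 and 31.1 FPKM. These were the 2 genes lower by 1.5-fold of 16 measured in the vascular tone list, against 2.54% of all genes. None of the 16 was higher by 1.5-fold, against 2.36% of all genes. Nos3, endothelial nitric oxide synthase, which shares sequence with other genes, was level at 227 and 230.4 FPKM, and endothelin 1, Edn1, at 7.69 and 7.36 FPKM. Plat, the tissue plasminogen activator, had 144 and 66.0 FPKM. The connexins went in opposite directions, with Gja4 at 7.64 and 18.5 FPKM and Gja1 at 33.6 and 21.5 FPKM. In the prostaglandin list Ptgis, which makes prostacyclin, had 33.6 and 54.7 FPKM, and the transporter Slco2a1 had 25.4 and 38.0 FPKM (0.56, just under 1.5-fold). The inducible cyclooxygenase Ptgs2 was at 10.5 and 10.2 FPKM.

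Inflammatory genes showed no shared direction without DEX. The counts without DEX stand against 2.36% higher and 2.54% lower by 1.5-fold over all genes. Of 9 measured chemokines 1 was higher and 1 lower by 1.5-fold, and the higher one was Cxcl12, a retention signal for leukocytes, with 101 and 219 FPKM. With DEX 4 of 10 measured chemokines were higher and 0 lower by 1.5-fold, where 268 and 297 of all 11344 genes were. Of 15 leukocyte adhesion molecules 1, P-selectin (Selp, sharing sequence with other genes), was higher by 1.5-fold, and E-selectin, Sele, was at 11 and 16.3 FPKM. The alarmin Il33 was at 2.17 and 1.06 FPKM, the only 1 of 16 measured cytokines and receptors past 1.5-fold. Among 23 regulators and subunits of NF-kappaB 18 were lower, 1 of them by 1.5-fold (Chuk, a kinase that acts on the inhibitor of NF-kappaB, 35.1 and 21.9 FPKM), with a median of −0.10; at the same total FPKM 13 were lower. Of 39 interferon-stimulated genes 2 were lower and none higher by 1.5-fold, too few to describe a difference from all genes. They were Rsad2 (−0.85, with DEX −0.78) and Ifit1 (−1.01, with DEX −0.89), which shares sequence with other genes. No gene of 16 in the Notch list was past 1.5-fold, and of 37 measured in the Wnt list only Wnt9b was (17.5 and 10.1 FPKM).

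Genes of mitosis were lower by small and similar amounts. Of 42 measured, 41 were lower, against 52.8% of all genes, and 40 were lower with DEX as well, where 51.8% of all genes were. The median was −0.34, and −0.28 with DEX. Only Hmmr, a protein of the mitotic spindle, passed 1.5-fold, with 30.1 and 19.4 FPKM. The spindle motor Kif11 had 47.9 and 34.0 FPKM, cyclin B1, Ccnb1 (sharing sequence with other genes), 95.5 and 68.5 FPKM, and Top2a, which untangles chromosomes, 90.1 and 74.2 FPKM. Mki67, the marker of cycling cells, was level at 24.6 and 23.6 FPKM. In these bulk samples, fewer dividing cells and less of these mRNAs per cell cannot be told apart. Genes of DNA replication and its control were less shifted, with 35 of 47 lower and a median of −0.10; at the same total FPKM 28 were lower and the median was −0.03.

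The lists of ribosomal proteins and histones, in which most genes are short or share sequence, had medians below 0 without DEX and near 0 with it. Of 80 cytosolic ribosomal protein genes 76 were lower, against 52.8% of all genes, with a median of −0.16 and of −0.02 with DEX. The 9 of the 80 that belong to the long, unshared class had a median of −0.18 without DEX. Their summed FPKM was 103478 with control and 90976 with GR siRNA, and 105242 and 102704 with DEX. Of 17 measured replication-dependent histone genes 7 were lower by 1.5-fold, against 2.54% of all genes. The list median was −0.49, and −0.01 for the same genes with DEX. The 3 of the 17 that are long and unshared had a median of −0.49 without DEX. Among 76 genes of oxidative phosphorylation 3 were lower by 1.5-fold, against 2.54% of all genes (median −0.08, with DEX 0.01). At the same total FPKM the median was −0.01, with 39 genes lower and 37 higher. In Ndufs5, which shares sequence with other genes, 81.0 and 16 FPKM without DEX stood against 66.8 and 81.1 FPKM with it. What makes the 2 pairs of columns differ in these genes was not tested.

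**Figure D4:**
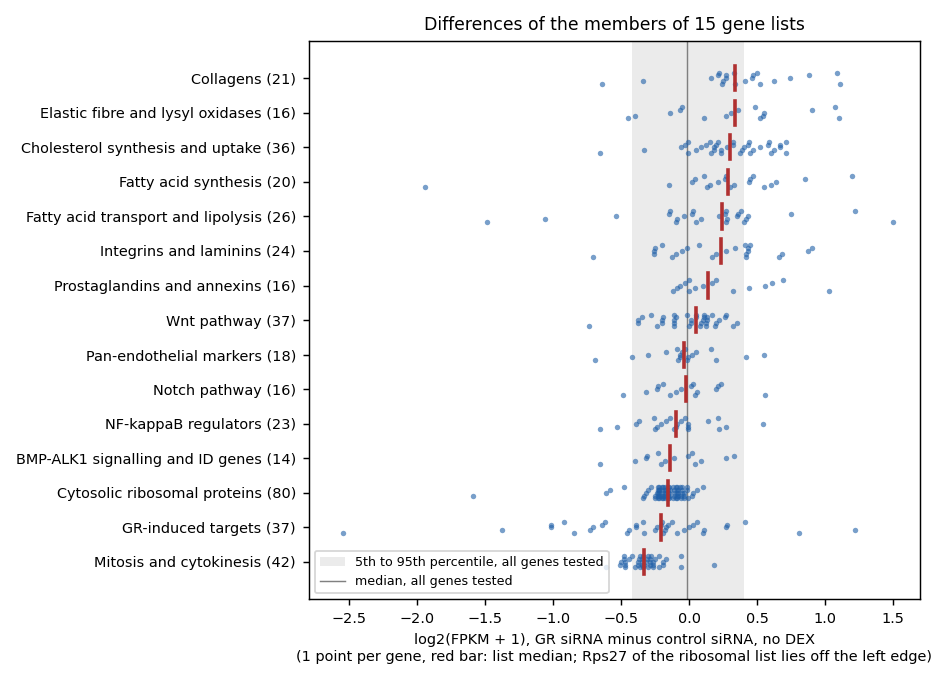
Difference on the log2(FPKM + 1) scale for each measured member of 15 gene lists (number of members in brackets), with list medians as red bars, the median of all genes as a grey line and their 5th to 95th percentile as a grey band. Medians run from 0.34 in collagens to −0.34 in mitosis; Rps27 of the ribosomal list, at −4.95, lies outside the axis.

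Most other lists lay close to the median of all genes. Of 54 lists with measured members, 12 with medians between −0.05 and −0.01 changed sign when the columns were brought to the same total FPKM, so no direction is given for them. The medians of the lipid, collagen, elastic fibre, integrin, GR-induced and mitosis lists kept their sign at the same total; that of ribosomal proteins was −0.09 there, with 64 of 80 genes lower, and 39 of the 42 mitosis genes were lower there. Single genes past 1.5-fold in lists without a shift included the BH3-only death gene Bik (21.2 and 37.6 FPKM), the death receptor Fas (10.3 and 5.8 FPKM), the secreted glutathione peroxidase Gpx3 (7.95 and 3.62 FPKM) and the fibroblast growth factor receptor Fgfr3 (36.9 and 21.8 FPKM, sharing sequence with other genes).

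The cells carried endothelial markers at similar levels in both columns. All 18 pan-endothelial markers were measured, with a summed FPKM of 3683 with control and 3490.4 with GR siRNA; Pecam1 had 280.3 and 275 FPKM, and Cdh5, VE-cadherin, 436 and 411 FPKM. Clec14a, at 51.8 and 31.8 FPKM, was the 1 marker past 1.5-fold. Among lymphatic markers Lyve1, a hyaluronan receptor, had 373 and 191 FPKM and Flt4, the receptor of Vegfc, 28 and 20.3 FPKM, while Prox1, which defines lymphatic identity, was near 0 at 0.179 and 0.12 FPKM, and Pdpn was at 0.

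Markers of fibroblasts were few and low, and were somewhat higher with GR siRNA. They are not separate from the matrix genes above, since Col3a1, Col13a1 and Dcn are also in the collagen list. Of 16 listed 5 reached 1 FPKM, and all 5 were higher, against 47.2% of all genes. By 1.5-fold 2 were higher, against 2.36% of all genes: Dcn at 0.387 and 1.99 FPKM and Pi16 at 2.03 and 4.41 FPKM. Dcn reached 1 FPKM only with GR siRNA, so the filter fixed its direction. The summed FPKM of the 16 was 158 with control and 173 with GR siRNA, most of it from Npnt (140.1 and 143 FPKM). Of the defining markers, Col1a2 was near 0 at 0.0105 and 0.0141 FPKM, Col1a1 was at 0.127 and 0.466 FPKM, and Pdgfra at 0.16 and 0.352 FPKM. Of 13 mural cell markers 2 were measured, with sums of 15.4 and 17.9 FPKM; Acta2 had 5.65 and 8.82 FPKM and Rgs5 was at 0. Epithelial markers summed to 15.9 and 18.4 FPKM with Epcam at 0, and leukocyte markers to 179 and 197 FPKM, nearly all from Cd68, with Ptprc at 0. The part of such cells in the matrix differences was not tested.

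Among long, unshared genes that were lower with GR siRNA, an 8-base word in the 3′ untranslated region was more frequent than among all genes. The word, TTCTGAAA, joins a pair of 7-base words (TTCTGAA and TCTGAAA) that an earlier scan of these same columns had picked for this pattern, so the shares are a description and support nothing. It was searched on the mRNA strand of the longest annotated region of 8365 genes. It was found in 786 of them (9.4%), in 42 of the 175 genes lower by 1.5-fold (24.0%) and in 7 of the 168 higher ones (4.17%). Sites of genes on the lower side are shown here with 8 bases on either side (mm10, mRNA strand), the word in capitals; Glipr2, Serinc3 and Ednrb are the 3 of the 25 most lowered genes that hold it.
Glipr2, chr4:43977833-43977856, plus strand: aagattagTTCTGAAAtctttttt
Serinc3, chr2:163625380-163625403, minus strand: gtctccttTTCTGAAAatgcatat
Ednrb, chr14:103816411-103816434, minus strand: cctgagacTTCTGAAAttccctca
Spsb1, chr4:149896351-149896374, minus strand: atgtatagTTCTGAAAcccccgtt
Rsad2, chr12:26444669-26444692, minus strand: tcacacttTTCTGAAAagctccaa
Tgoln1, chr6:72611530-72611553, minus strand: ctcgaggcTTCTGAAAgtaaaatc
The flanking bases differ from site to site. Glipr2 had 22.2 and 8.77 FPKM (20.2 and 7.74 FPKM with DEX), Spsb1 15.5 and 7.57 FPKM, Rsad2, an antiviral gene, 22.2 and 11.8 FPKM, and Tgoln1, a protein of the trans-Golgi network, 59.7 and 33.5 FPKM.

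The 7-base words had been picked from these same columns for this pattern. The values below, also those by region length and those without word-holding genes, therefore only describe and support nothing. By this description, genes with the word were shifted as a group, by a small amount. Their median difference was −0.107, that of 2021 genes with only a 7-base word −0.037, and that of 5558 genes with none 0.015; with DEX the medians were −0.104, −0.033 and 0.012. Regions with the word were longer, with medians of 2815 nt against 1058 nt for those with none. Within regions of 1000 to 2000 nt the medians were −0.144 for 157 genes with the word and 0.013 for 1559 with none, and within regions of at least 4000 nt they were −0.068 for 227 and 0.009 for 209. Of 21 genes lower by 2-fold 1 (4.76%) held the word, against 9.4% of all genes, too few to describe a difference. Of the 25 most lowered genes of at least 5 FPKM, 3 held it, and of the 25 on the higher side 2 did, Scd1 and Cxcl12. A 7-base word, alone or within the 8-base word, was in 8 of the lower 25 and 7 of the higher 25. Tfcp2l1, named above as higher, also holds the 8-base word. Lcn2, Lrg1, Ucp2, Plat, Gpihbp1, Tsc22d3, Lyve1, Per1, Fkbp5, Zbtb16 and Wnt9b hold none of the 3 words. Of the other genes named here as lower by 1.5-fold, Igfbp3, Itgb3, Gja1, Chuk, Insig2 and Ifit1 hold the 8-base word. Also among them, Thrsp, Igfbp5, Masp1, Pomp, Ddit4, Plod2, Hmmr, Inhbb, Sema3a and Clec14a hold a 7-base word only. The longest annotated 3′ untranslated region of Nr3c1 (3940 nt) holds none of the 8-base word either. Over all annotated transcripts of Nr3c1, the most copies of the word in any of them was 2, and their place was not determined. Without the genes that hold a 7-base word, the mitosis median was −0.30 and that of GR-induced targets −0.25. Whether the word matches the siRNA used was not tested.

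**Figure D5:**
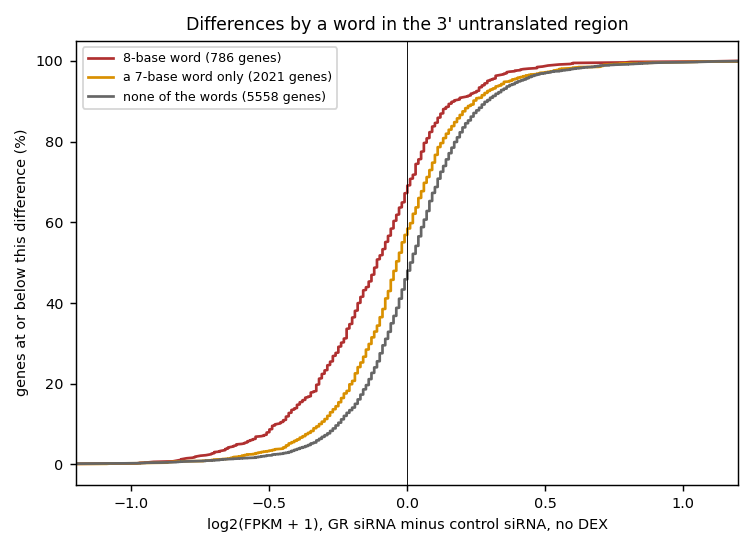
Cumulative share of long, unshared genes (vertical, %) by difference on the log2(FPKM + 1) scale (horizontal), for 786 genes with the 8-base word in the 3′ untranslated region, 2021 with a 7-base word only and 5558 with none. The curve of genes with the 8-base word lies left of the curve of genes with none, with medians of −0.107 and 0.015. The 7-base words were picked from these same columns, so the gap supports nothing.

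Few promoters held a glucocorticoid response element, the paired hexamer to which GR dimers bind. The 250 bases before the start were taken from RefSeq (GRCm38.p6) for 6843 long, unshared genes and searched on both strands. The full palindrome, AGAACA and TGTTCT with any 3 bases between, was in 1 of them (0.0146%) and in 3 of all 32851 promoters (0.00913%). A looser form chosen after the data were seen, GNACA and TGTNC with any 3 bases between, which overlaps the palindrome, was in 18 (0.263%) against 127 of all promoters (0.387%). It was in 2 of the 140 genes lower by 1.5-fold (1.43%) and in 1 of the 122 higher ones (0.82%), too few to describe a difference. The windows below hold the palindrome of Sgk1, the matches of the genes past 1.5-fold, and that of Mt1, in capitals. They are a selection, and the genes with a match that are not shown lay on both sides. Fkbp7 (0.42) and Galnt11 (0.27) were higher, and Eml1 (−0.5) and Limd2 (−0.33) were lower.
Sgk1, chr10:21993695-21993722, plus strand: gcggaaAGAACAGAATGTTCTcggagat
Mt1, chr8:94178988-94179015, plus strand: actatagGGACATGATGTTCcacacgtc
Map3k6, chr4:133240630-133240657, plus strand: aatagggGCACAGGCTGTTCcggaagtg
Fam107a, chr14:8309877-8309904, minus strand: gtggcttGGACATGGTGTTCtgagtctc
Suox, chr10:128673944-128673971, minus strand: gacgcctGCACAAACTGTACacgtcacg
Sgk1 and Mt1 were modestly lower, as given above. Map3k6, a kinase of the MAP kinase cascade, had 24.4 and 14.5 FPKM, and Fam107a, a glucocorticoid-responsive gene of the cytoskeleton, 4.31 and 2.19 FPKM. Suox, sulfite oxidase, was higher, at 8.36 and 13.3 FPKM. The sterol response element, searched in its classic 10-base form, was in 5 of the 6843 genes (0.0731%) and in none past 1.5-fold. These 5 matches are too few to describe a difference. Elements farther from the start were not analysed here.

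The direction of the differences varied with the level of the gene. Among 614 long, unshared genes with a mean of 1 to 2 FPKM, 5.21% were higher and 1.95% lower by 1.5-fold, while among 564 genes above 100 FPKM 0.355% were higher and 2.84% lower. The column of control siRNA, which is the shallower, gives fewer fragments to genes of low level, and the part of depth in this was not tested. At the filter, 350 genes reached 1 FPKM in 1 column only, 230 of them with GR siRNA and 120 with control siRNA, and 122 of the 350 were past 1.5-fold. The members nearest the filter were Fam49a (1.0 and 0.723 FPKM), Vsig10l (0.699 and 1.0 FPKM) and Tbx15 (0.89 and 1.01 FPKM). Just outside it were Epor, the erythropoietin receptor (0.673 and 0.999 FPKM), Nxpe2 (0.93 and 0.999 FPKM) and Tnxb (0.676 and 1.0 FPKM).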

How the data were processed

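Total RNA was isolated with an RNeasy kit, per the labels' protocols. FPKM values were deposited by the authors as 1 table of 4 columns, 1 per condition; per the submitters' processing notes TopHat2, a spliced aligner, and Cuffdiff, which estimates FPKM, were used with the mm10 build. Versions, and how replicates were combined, were not stated in any source used. Cuffdiff-type estimates divide reads between genes of shared sequence, so values of such genes are uncertain, and FPKM keeps no counts, so depth was read only from low genes (320 of 1656 genes under 0.1 FPKM in both columns shared 1 ratio within 0.2%).

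Differences of log2(FPKM + 1) were taken over genes of at least 1 FPKM in either column and counted at 1.5-fold and 2-fold (Python 3.11.15, pandas 2.3.3). With 1 column per condition there was no test; the counting was tested on simulated data. Genes were matched to GENCODE M21 (22694 by symbol, 929 by synonym, 374 not at all); 55 gene lists held 1473 symbols, 8 of them not in the table. The members, gene lists and class of long genes were chosen with earlier results of these data known. Named genes were Nr3c1, the 25 largest differences on each side among long, unshared genes of at least 5 FPKM, up to 6 members of each list by absolute difference and any past 1.5-fold, all marker genes and the genes nearest the filter. Named outside it, after their values were seen, were genes given for their role in a list, those with a printed sequence, Rps27 and Thbs1.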

Additional observations from a re-analysis of the deposited data

Results flagged for a closer look

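Of the genes named or listed, 2 went in opposite directions in the pairs of columns without and with DEX, each by at least 1.5-fold; the difference between the pairs was not tested. The histone gene Hist1h2an had a difference of −1.55 without and 0.85 with DEX. The ribosomal protein gene Rpl26 had −1.59 without and 1.62 with DEX. Both share sequence with other genes: 89.0% of the 31-base words of Hist1h2an and 27.1% of those of Rpl26 occur elsewhere.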

How the results depend on the processing

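Counts of genes past 2-fold (89 higher, 81 lower) and 1.5-fold (267 higher, 288 lower) depended on the value added before the logarithm: with 0.1 FPKM they were 146 higher and 128 lower at 2-fold and 408 higher at 1.5-fold, and with 5 FPKM 56 and 48 at 2-fold and 120 and 169 at 1.5-fold. Among long, unshared genes only they were 28 and 22 at 2-fold and 171 and 179 at 1.5-fold; the class holds 8550 of the 11325 genes, and the genes outside it held 61 and 59 of the 2-fold calls. An alternative chosen after the data were seen left out genes holding a 7-base word. There 180 of 7882 genes were lower by 1.5-fold, against 288 of 11325 with them. The other 32 counts stayed within 1.5 times. Between the columns with DEX, the histone list median was 0.163 over the members measured there, and these genes changed direction: Atp6v0c (0.337), Hist1h2an (0.846), Hist1h4c (0.541), Hist1h4d (0.392), Hist1h4f (0.523), Lars2 (0.014), Ndufs5 (0.275) and Rpl26 (1.622); the cause was not tested. A further 26 differences moved (10 with 0.1 FPKM added, 14 with 5 FPKM and 2 with the DEX columns), as did 1 list median (lymphatic markers with no filter), with no change of direction; the other 1388 differences and 592 list medians moved little. A search for response elements within 2, 10 and 50 kb of gene starts was not run. No paired analysis was possible because each condition has 1 column and the only replicate label is R1 in every sample.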
